A study of Mus musculus with 36 samples.

Results

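The 6 genes Igll1, Vpreb1, Vpreb2, Vpreb3, Cd79a and Cd79b, which encode the surrogate light chain and the signalling arm of the pre-B cell receptor, were followed through 24 h of Ikaros induction in the mouse pre-B cell line B3. They were taken by gene symbol, with earlier results of these data known. All 6 are among the 12762 genes of the expression table, of which 12501 have a symbol. The Ikaros line carried a mouse stem cell virus (MSCV) retroviral vector encoding haemagglutinin-tagged Ikaros fused to the estrogen receptor hormone-binding domain (HA-Ikaros-ERt2-IRES-GFP), and the control line carried the vector with ERt2 and GFP but no Ikaros. Messenger RNA was sequenced from both lines in triplicate, giving 12 groups of 3 libraries, at 0, 2, 6, 12, 18 and 24 h. The libraries came from culture batches 1, 2 and 4 at 0 h and batches 1, 3 and 4 later, and each batch held a control and an Ikaros culture. The labels list 4-hydroxy-tamoxifen (4-OHT) at 0.5 uM for every library, but by the study's methods the 0 h cells had no drug and were collected separately. A comparison with 0 h therefore also compares collection occasions. B3 is a single cultured line in which the vector, not the Ikaros locus, supplied the added Ikaros, so the groups compare that line with and without vector-borne Ikaros.

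The pre-B cell receptor is assembled in developing B cells that have produced an immunoglobulin heavy chain but not yet a light chain. In place of the light chain it carries a surrogate made of lambda 5, encoded by Igll1, and a VpreB protein, encoded by Vpreb1 or the closely related Vpreb2. Cd79a and Cd79b encode the Ig-alpha and Ig-beta chains, which span the membrane beside the heavy chain, carry the signal into the cell and stay in use in the mature B cell receptor. Vpreb3 encodes a related protein that binds heavy chains inside the cell and is not part of the surface receptor. Silencing of the surrogate light chain genes is a known step from dividing large pre-B cells to resting small pre-B cells, and Ikaros is a zinc finger transcription factor known to act at that step.

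Igll1 (ENSMUSG00000075370) lies on the reverse strand of chromosome 16 at 16860671 to 16863985 in GRCm38, the build also called mm10. Vpreb1 (ENSMUSG00000059305) lies on the same strand at 16868403 to 16870843, with 4417 bases between the genes. Vpreb2 (ENSMUSG00000059280) is on the forward strand of the same chromosome at 17980428 to 17981273, which is 1109584 bases beyond Vpreb1. Vpreb3 (ENSMUSG00000000903) is at 75943057 to 75949657 on chromosome 10, Cd79a (ENSMUSG00000003379) is at 24897381 to 24902197 on chromosome 7, and Cd79b (ENSMUSG00000040592) is at 106311341 to 106314762 on chromosome 11. Cd79b is on the reverse strand, and Vpreb3 and Cd79a are on the forward strand. All 6 are annotated as protein coding.

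The coding sequences of Vpreb1 and Vpreb2 are both 426 bases long and differed at 9 positions, an identity of 97.9%. Of all windows of 75 bases, the length of each read of a pair, 136 of 692 (19.7%) in the Vpreb1 transcript were also present in Vpreb2. The libraries were read from both ends and counted by fragment, so a read in such a stretch may still have been placed by its mate, and the share of fragments that fits both genes was not measured. The genes had 6 of their 9 coding differences in the stretch from coding base 268 to 387, shown here with the differing bases in capitals. These letters are among those that separate reads of Vpreb1 from reads of Vpreb2. The Vpreb1 stretch lies at chr16:16868638-16868757 on the reverse strand and the Vpreb2 stretch at chr16:17980919-17981038 on the forward strand (GRCm38).
Vpreb1: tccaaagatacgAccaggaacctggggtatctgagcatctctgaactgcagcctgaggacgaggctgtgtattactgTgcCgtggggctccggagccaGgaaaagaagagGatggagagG
Vpreb2: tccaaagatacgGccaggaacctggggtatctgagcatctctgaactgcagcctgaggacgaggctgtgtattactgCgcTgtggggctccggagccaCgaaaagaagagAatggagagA
The transcripts of Igll1, Vpreb3 and Cd79b shared no window of 75 bases with any other gene. Cd79a shared 62 of 1383 (4.48%) with the annotated gene Gm32220.

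RefSeq promoter windows on GRCm38.p6, each holding the 250 bases before the annotated start, were matched for 5 of the 6 genes, namely Igll1, Vpreb1, Vpreb2, Vpreb3 and Cd79a. The letters CAGGTG, an E box of the kind bound by E proteins such as E2A, were present on either strand in 4 of these 5 windows and in 17.2% of the 32851 windows of the table. The second E box searched, CAGCTG, was present in the windows of Igll1 and Vpreb2 and in 13.0% of all windows. The Igll1 window (chr16:16863986-16864235, reverse strand) is shown because this gene is discussed first below. Also shown are the 106 bases over which the Vpreb1 and Vpreb2 windows overlap when aligned, because they are nearly identical. The cut of the windows sets this length, and how far the likeness extends was not measured. Capitals mark the E boxes, which in Igll1 are CAGCTG and, on the other strand, CAGGTG read as CACCTG.
Igll1: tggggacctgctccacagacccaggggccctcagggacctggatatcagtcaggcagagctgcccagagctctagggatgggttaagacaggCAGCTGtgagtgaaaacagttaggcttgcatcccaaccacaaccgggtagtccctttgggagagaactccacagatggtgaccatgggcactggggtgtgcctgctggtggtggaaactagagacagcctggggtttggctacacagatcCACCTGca
Vpreb1: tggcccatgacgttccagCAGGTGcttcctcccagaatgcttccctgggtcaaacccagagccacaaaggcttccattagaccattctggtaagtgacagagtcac
Vpreb2: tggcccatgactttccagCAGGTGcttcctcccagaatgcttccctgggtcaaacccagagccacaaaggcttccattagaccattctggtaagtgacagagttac
The Vpreb1 stretch (chr16:16869256-16869361, reverse strand) ended at the base before its annotated start, and the Vpreb2 stretch (chr16:17980315-17980420, forward strand) covered positions -250 to -145, so the same letters stand at different distances from the starts that RefSeq gives. The gene positions given earlier come from GENCODE and place these starts elsewhere. By them the Vpreb1 stretch lies inside the gene, which runs to 16870843. The Vpreb2 stretch ends just before the GENCODE start at 17980428. Counted from 1 at the left, the stretches differed by G12T and C104T from Vpreb1 to Vpreb2, an identity of 98.1%. The Ikaros core letters TGGGAA were found in the Vpreb2 window at -64 to -59, where they overlapped the CAGCTG at -60 to -55, and in none of the other 4, against 21.6% of all windows. By the GENCODE positions, which start Vpreb2 at 17980428, both of these Vpreb2 sites lie inside the gene and not before it. The Ets letters GAGGAA were present in 3 of the 5 windows (Vpreb1, Vpreb2 and Cd79a) and in 23.3% of all. Those of Vpreb1 and Vpreb2 again lie at the same place in the shared stretch. The octamer ATGCAAA was present in Vpreb3 and in 4.12% of all.

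Levels are given on the log2 scale of the deposited table, in which gene length and GC content were adjusted for and a constant was added. The median of all gene means was 11.72. No read depth can be recovered from such values. A difference of 1 is a doubling if the base of the logarithm is 2, and a gene was called at a Benjamini-Hochberg adjusted p under 0.05 over all genes in limma. Ikzf1, the gene that the vector carries, ranged from 13.95 to 14.85 over the 18 control libraries and from 19.63 to 20.93 over the 18 Ikaros libraries, so each library went with the line in its label. Its difference between the lines was 5.19 already at 0 h, and 4-OHT is known to act on such fusions by letting the protein enter the nucleus. Of the 19 markers of T, NK, myeloid and erythroid cells that were looked for, 6 could be analysed, and the others, Cd3e, Cd4, Cd8a, Csf1r, Cd14 and Mpo among them, matched no row of the table used here. Pax5, the factor that maintains B cell identity, had a mean level of 16.11 at 24 h in control and of 17.25 in Ikaros cells.

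In control cells at 0 h the 6 genes covered a wide range of levels. Cd79a stood highest at 18.48 ± 0.07 (SD, n = 3), followed by Vpreb3 at 17.64 ± 0.43, Igll1 at 16.62 ± 0.19, Vpreb1 at 16.03 ± 0.28, Cd79b at 15.66 ± 0.22 and Vpreb2 at 13.90 ± 0.17. Only Vpreb1 and Cd79b overlapped among neighbours in this order. By level, Cd79a was above 99.5% of the genes of the table and Vpreb2 above 84.5%. The order in Ikaros cells at 0 h was the same. At 24 h the order in Ikaros cells had become Cd79a (18.46), Cd79b (17.82), Vpreb3 (17.32), Vpreb1 (12.71), Igll1 (12.60) and Vpreb2 (9.58), with Igll1 overlapping Vpreb1. Igll1 then stood above 65.0% of the genes, Vpreb1 above 66.8% and Vpreb2 above 24.8%, whereas Cd79b had moved from above 95.8% at 0 h to above 99.1%.

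**Figure D1:**
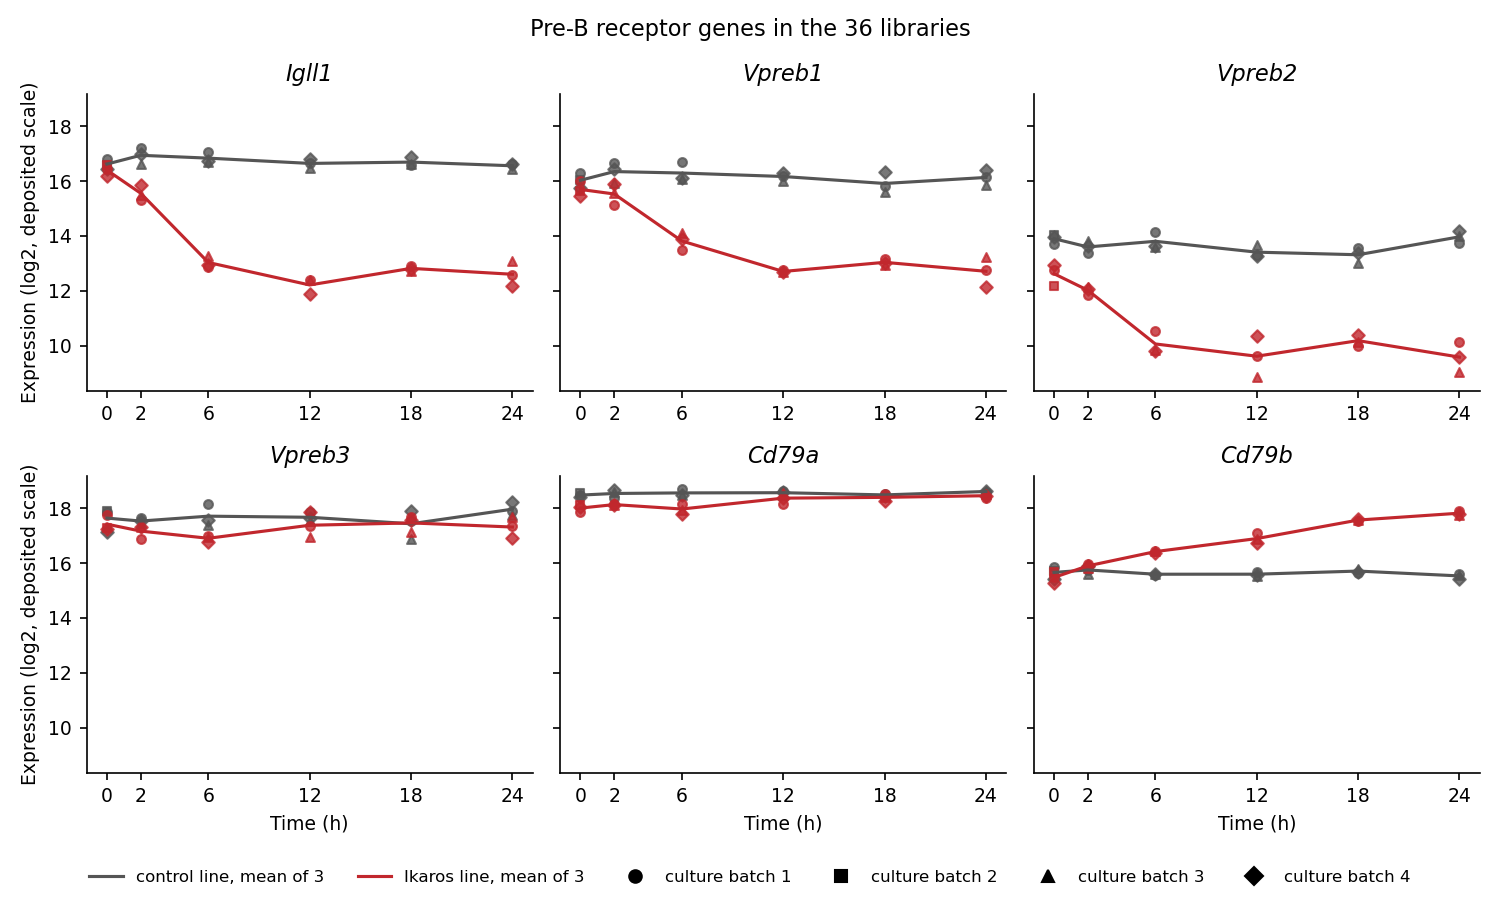
Expression of the 6 genes (log2, deposited scale) against time in hours, with 1 point per library, the point shape giving the culture batch, and lines joining the means of 3 libraries for control (grey) and Ikaros cells (red). Igll1, Vpreb1 and Vpreb2 dropped in the Ikaros line between 2 and 6 h, Cd79b climbed to 17.82 at 24 h, and Vpreb3 and Cd79a stayed between 16.78 and 18.57 in Ikaros cells.

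In the control line the 6 genes did not depart from their 0 h levels beyond the threshold. Over the 5 later times none of the 30 comparisons was called in limma and none had an unadjusted p under 0.05, and the log2 differences ran from -0.59 to 0.33. The share of all genes called in the same comparisons was 0.0470%, 5.10%, 0.0549%, 0.478% and 0.470% at 2, 6, 12, 18 and 24 h. Igll1 in control cells kept between 16.43 and 17.22 in all 18 libraries, and Cd79b between 15.41 and 15.88.

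Igll1, the lambda 5 gene, fell from 2 h on. At 0 h its values in batches 1, 2 and 4 were 16.82, 16.60 and 16.44 in control and 16.43, 16.58 and 16.18 in Ikaros cells. At 2 h, in batches 1, 3 and 4, they were 17.22, 16.61 and 16.99 in control and 15.32, 15.50 and 15.84 in Ikaros cells. The lines overlapped at 0 h and were separate at 2 h, with every Ikaros library below every control library. At 6 h the Ikaros libraries stood at 12.88, 13.28 and 12.93 and the control libraries at 17.07, 16.70 and 16.73. At 12 h the Ikaros values were 12.39, 12.37 and 11.87, and their mean of 12.21 was the lowest of the course. The batch 4 Ikaros library at 24 h, at 12.17, lay within their range. The lines were therefore apart by more than 3 units in every batch from 6 h on, the smallest batch difference at these times being -3.36 at 24 h.

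Ikaros minus control differences of Igll1 at 0, 2, 6, 12, 18 and 24 h were -0.22, -1.38, -3.80, -4.43, -3.88 and -3.96 (SE 0.20). By limma the value at 0 h was not called (adjusted p 0.624), and those at 6 and 12 h had an adjusted p of 5.14e-14 and 9.41e-16. On a linear scale the 6 h level was 14.0-fold lower and the 12 h level 21.6-fold lower than in control cells. By the size of the fall Igll1 was 23rd from the lowest of 12762 genes at 6 h and 59th at 24 h. Within the Ikaros line the successive steps were -0.84 from 0 to 2 h (adjusted p 0.00355), -2.52 from 2 to 6 h (adjusted p 5.85e-09), -0.82 from 6 to 12 h (adjusted p 0.00426) and 0.61 from 12 to 18 h (adjusted p 0.0242), with -0.22 from 18 to 24 h. The rise from 12 to 18 h was called only with all 3 replicates, since without replicate 1, 2 or 3 the adjusted p was 0.124, 0.0597 or 0.149. The 0 to 2 h step was not called without replicate 1 (-0.71, adjusted p 0.115) or replicate 2 (-0.72, adjusted p 0.0770), and the 6 to 12 h step was not called without replicate 2 (-0.78, adjusted p 0.0615) or with library preparation as a term (adjusted p 0.0664).

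Vpreb1 fell in the same period, mostly after 2 h. Its Ikaros values were 15.99, 15.63 and 15.46 at 0 h, 15.13, 15.56 and 15.89 at 2 h, and 13.47, 14.09 and 13.88 at 6 h. Its control values were 16.30, 16.05 and 15.74 at 0 h, 16.68, 15.92 and 16.44 at 2 h, and 16.68, 16.07 and 16.12 at 6 h. At 2 h the highest Ikaros library, at 15.89, was just under the lowest control library, at 15.92, and at 6 h the lines were well apart. At 12 h the 3 Ikaros libraries lay within 12.68 and 12.74, against 15.99 to 16.31 in control.

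For Vpreb1 the differences between the lines at the 6 times were -0.34, -0.82, -2.48, -3.46, -2.88 and -3.42 (SE 0.25). The limma adjusted p was 0.534 before induction, 0.0222 at 2 h and 1.78e-08 at 6 h, and all later times were called. This made the gene 5.57-fold lower at 6 h and 11.0-fold lower at 12 h. The call at 2 h was lost without replicate 1 (-0.46, adjusted p 0.472) and without replicate 2 (-1.05, adjusted p 0.0600). That call was also lost with library preparation as a term (adjusted p 0.103) and in a fit of the compared groups only (adjusted p 0.148). Within Ikaros cells the step from 0 to 2 h was -0.17 (adjusted p 0.666), that from 2 to 6 h was -1.71 (adjusted p 5.68e-05) and that from 6 to 12 h was -1.11 (adjusted p 0.00281). Without replicate 2 the last of these was -0.96 and was not called (adjusted p 0.0848).

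Vpreb2 differed between the lines before induction. Its values at 0 h were 13.71, 14.01 and 13.97 in control and 12.76, 12.18 and 12.93 in Ikaros cells, with no overlap and a difference of -1.28 (limma, SE 0.29, adjusted p 0.00413). Without replicate 2 that difference was -0.997 (adjusted p 0.124). At 6 h the Ikaros libraries stood at 10.54, 9.84 and 9.80 and the control libraries at 14.15, 13.61 and 13.65, and at 24 h at 10.12, 9.05 and 9.57 against 13.73, 14.01 and 14.16. Every Ikaros library was below every control library at all 6 times, and the Ikaros libraries spread more widely at low levels, with an SD of up to 0.76.

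Its later differences, all called, were -1.58, -3.74, -3.79, -3.13 and -4.39 at 2, 6, 12, 18 and 24 h, the first with an adjusted p of 0.000242 and the last with 5.69e-13. Measured from the difference already present at 0 h, the fall was -0.30 at 2 h (SE 0.41, adjusted p 0.852), -2.47 at 6 h (adjusted p 9.68e-05) and -3.11 at 24 h (adjusted p 5.11e-07). The step from 2 to 6 h within Ikaros cells was -1.96 (adjusted p 6.15e-05). At 24 h Vpreb2 was 36th from the lowest of 12762 genes by its difference. Of the windows of 75 bases in its transcript 19.9% also occur in Vpreb1, and how many of its fragments this touched was not measured.

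Vpreb3 and Cd79a had smaller differences. Vpreb3 values in Ikaros cells were 17.77, 17.27 and 17.23 at 0 h, 16.97, 16.97 and 16.78 at 6 h, and 17.35, 17.70 and 16.90 at 24 h, against 18.17, 17.41 and 17.56 at 6 h and 17.92, 17.75 and 18.23 at 24 h in control. Limma called the gene lower in the Ikaros line at 6 h (-0.81, SE 0.26, adjusted p 0.0181) as well as 24 h (-0.65, adjusted p 0.0345), and its differences at 0, 2, 12 and 18 h lay between -0.37 and 0.03 and were not called. Without replicate 1 neither call held (adjusted p 0.268 at 6 h and 0.127 at 24 h), nor did either with library preparation as a term (adjusted p 0.176 and 0.106) or in a fit of the compared groups only (adjusted p 0.0612 and 0.0505). Without replicate 3 the 24 h difference was -0.31 (adjusted p 0.352). The change from 0 h was -0.59 at 6 h (adjusted p 0.323) and -0.43 at 24 h (adjusted p 0.360).

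Cd79a, the Ig-alpha gene, was called lower in Ikaros cells at 0, 2 and 6 h and not later. Its values at 0 h were 18.49, 18.54 and 18.41 in control and 17.87, 18.12 and 18.03 in Ikaros cells. At 24 h they were 18.58, 18.62 and 18.64 in control and 18.39, 18.53 and 18.45 in Ikaros cells. The lines did not overlap at either time. The gap was smaller at 24 h, but its change from 0 h, 0.32, was not called (limma, adjusted p 0.0716). Over the 6 times the differences were -0.47, -0.41, -0.59, -0.20, -0.09 and -0.15 (SE 0.10), with limma adjusted p of 0.00265, 0.00546, 5.90e-05, 0.117, 0.469 and 0.192. Against its own 0 h Cd79a rose in the Ikaros line by 0.36 at 12 h, 0.39 at 18 h and 0.45 at 24 h (adjusted p 0.000441 at 24 h), and the step from 6 to 12 h, 0.40, was called (adjusted p 0.00751). The 0 h call was lost without replicate 1 (adjusted p 0.0581), without replicate 2 (adjusted p 0.133) and with library preparation as a term (adjusted p 0.0562). The 2 h call was lost without replicate 2 (adjusted p 0.185), without replicate 3 (adjusted p 0.0874) and in a fit of the compared groups only (adjusted p 0.133), and the last of these also ended the 6 h call (adjusted p 0.05005). The 6 to 12 h step was not called without replicate 2 (0.29, adjusted p 0.277) or replicate 3 (0.30, adjusted p 0.156).

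Cd79b, the Ig-beta gene, moved the other way and rose over the course. Its Ikaros values were 15.49, 15.68 and 15.27 at 0 h, 15.98, 15.83 and 15.89 at 2 h, and 16.44, 16.44 and 16.39 at 6 h. They reached 17.09, 16.87 and 16.72 at 12 h, 17.53, 17.59 and 17.59 at 18 h, and 17.90, 17.76 and 17.80 at 24 h. The lines overlapped at 0 and 2 h, and from 6 h every Ikaros library was above every control library, none of which passed 15.88. Over the 6 times the differences were -0.18, 0.15, 0.82, 1.30, 1.86 and 2.29 (SE 0.11). By limma those at 0 and 2 h were not called (adjusted p 0.380 and 0.382), and the adjusted p was 9.00e-07 at 6 h and 5.51e-16 at 24 h. At 24 h Cd79b was 4.88-fold higher in Ikaros cells, 514th from the highest of 12762 genes.

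The rise of Cd79b was spread over the course. Its steps in the Ikaros line were 0.42 from 0 to 2 h, 0.52 from 2 to 6 h, 0.47 from 6 to 12 h and 0.67 from 12 to 18 h (adjusted p 0.00684, 0.00182, 0.00262 and 3.78e-05), with 0.25 from 18 to 24 h (adjusted p 0.194). For Igll1, by contrast, the 2 to 6 h step alone was -2.52 of a fall of -3.80 between 0 and 24 h. The 0 to 2 h step of Cd79b was not called when any of the 3 replicates was left out, with adjusted p from 0.0555 to 0.103. The 2 to 6 h step was not called without replicate 2 (adjusted p 0.138), and the 6 to 12 h step was not called without replicate 1 (adjusted p 0.0828), without replicate 2 (adjusted p 0.0820) or with library preparation as a term (adjusted p 0.0752).

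**Figure D2:**
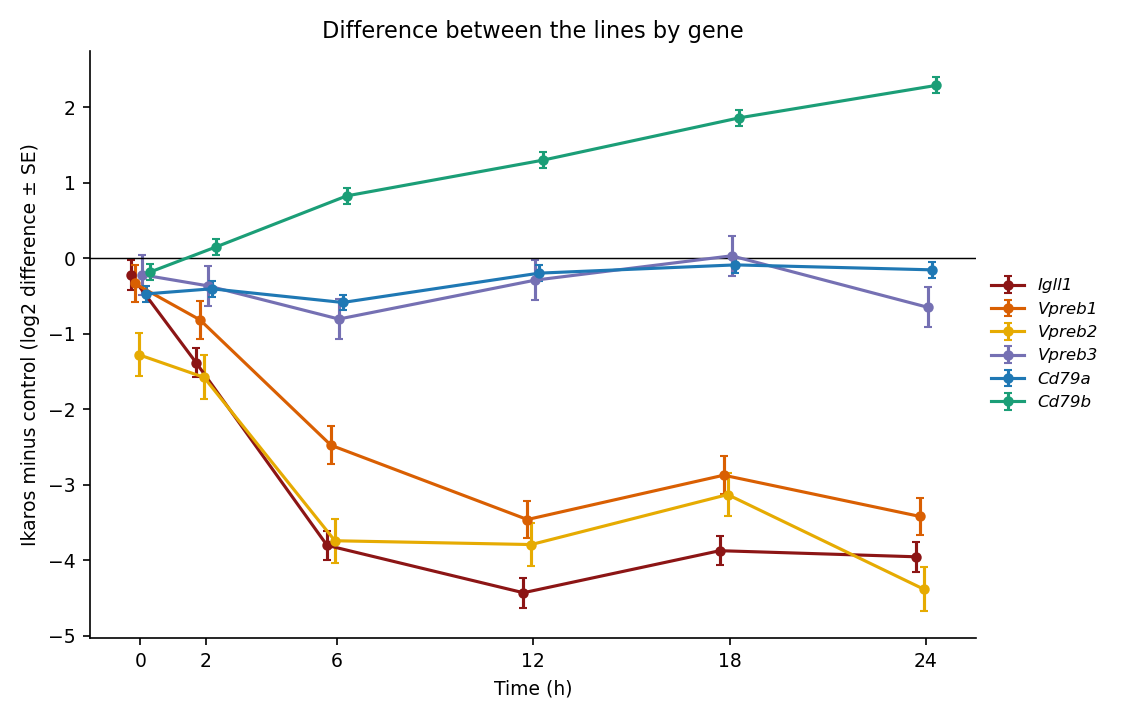
Ikaros minus control difference (log2) by time in hours for the 6 genes, each point the limma estimate from 3 against 3 libraries and the bar its standard error, with points shifted slightly in time to keep the bars apart. Cd79b ends at 2.29, Vpreb3 and Cd79a stay between -0.81 and 0.03, and Igll1, Vpreb1 and Vpreb2 end between -4.39 and -3.42.

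Counted by time, 2 of the 6 genes were called between the lines at 0 h, when 8.33% of all genes were, and 4 at 2 h, when 19.1% were. All 6 were called at 6 h, and 4, 4 and 5 at the 3 later times, against 37.3%, 45.8%, 58.2% and 62.9% of all genes. Without a single replicate the count at 0 h ranged from 0 to 2 and that at 2 h from 2 to 3, and with only the compared groups in the fit the 2 h count was 2. For the change of the difference from 0 h the counts were 1, 4, 4, 5 and 4 at 2, 6, 12, 18 and 24 h, against 3.10%, 15.9%, 29.7%, 43.0% and 48.4% of all genes. The call at 2 h, Igll1 at -1.16 (adjusted p 0.0149), was lost without replicate 1 (adjusted p 0.452) or replicate 2 (adjusted p 0.183), with library preparation as a term (adjusted p 0.0757), and in a fit of the compared groups only (adjusted p 0.0649). From 2 h to 24 h, times that share the same culture batches and drug, 4 of the 6 differences changed (47.3% of all genes), by -2.57 for Igll1, -2.60 for Vpreb1, -2.81 for Vpreb2 and 2.14 for Cd79b.

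Within the Ikaros line, 2, 4, 5, 5 and 5 of the 6 genes were called against 0 h at 2, 6, 12, 18 and 24 h, against 19.2%, 32.8%, 46.1%, 54.6% and 60.6% of all genes. By successive steps the counts were 2 from 0 to 2 h, 4 from 2 to 6 h (11.2% of all genes), 4 from 6 to 12 h (20.8%) and 2 from 12 to 18 h (25.5%). From 18 to 24 h limma called none of the 6, against 5.77% of all genes. For this step 2 of the 6 had an unadjusted limma p under 0.05, against 2255 of all 12762 genes. Without a single replicate the 6 to 12 h count ranged from 0 to 3 and the 12 to 18 h count was 1. In fits of the compared groups only, Igll1 alone was called from 2 to 6 h, and the 4 calls from 6 to 12 h were lost.

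Differences between genes of the same library do not depend on what a library adds to all of its values, and they show the spacing between the components of the receptor. Igll1 exceeded Vpreb1 by 0.59 ± 0.10 (SD, n = 3) in control and 0.70 ± 0.26 in Ikaros cells at 0 h. The excess at 2 h was 0.59 ± 0.08 in control and 0.03 ± 0.14 in Ikaros cells, and at 6 h it was 0.54 ± 0.13 and -0.78 ± 0.18. Igll1 was thus above Vpreb1 in every control library and below it at 6 h in all 3 Ikaros libraries. By 24 h the value in Ikaros cells was -0.11 ± 0.11, against 0.43 ± 0.18 in control. With 3 against 3 libraries the two-sided exact permutation test cannot go below 0.1, so these within-library values are given without a call.

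The paired chains of the signalling arm drew together. Cd79a exceeded Cd79b by 2.82 ± 0.17 in control and 2.53 ± 0.21 in Ikaros cells at 0 h, by 2.96 ± 0.15 and 1.55 ± 0.16 at 6 h, and by 3.08 ± 0.14 and 0.64 ± 0.14 at 24 h. The control and Ikaros libraries did not overlap in this value from 2 h on. Cd79b minus Igll1 was -1.51 to -0.82 in all 18 control libraries, and 0.35 ± 0.30, 3.39 ± 0.21 and 5.22 ± 0.48 in Ikaros cells at 2, 6 and 24 h. Vpreb1 exceeded Vpreb2 by 2.13 ± 0.42 in control and 3.07 ± 0.48 in Ikaros cells at 0 h and by 2.16 ± 0.29 and 3.13 ± 0.90 at 24 h, and the lines overlapped in this value at 0, 2, 12 and 18 h.

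**Figure D3:**
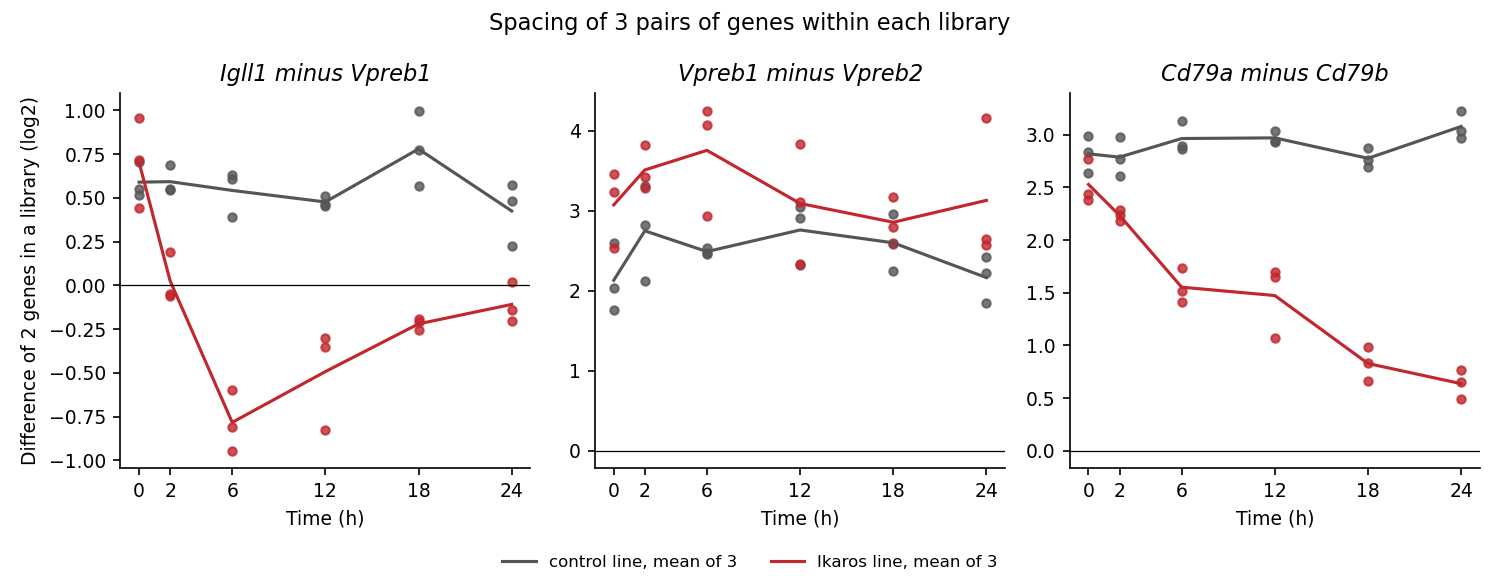
Difference between 2 genes within a library (log2) by time in hours for 3 pairs, with 1 point per library and lines joining the means of 3 libraries for control (grey) and Ikaros cells (red); each panel has its own scale. Igll1 minus Vpreb1 in the Ikaros line moved from 0.70 at 0 h to -0.78 at 6 h, Cd79a minus Cd79b narrowed to 0.64 at 24 h, and Vpreb1 minus Vpreb2 overlapped between the lines at 4 of the 6 times.

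Ighm, the heavy chain that the surrogate light chain and the CD79 chains accompany, had a mean at 0 h of 17.74 in control and 17.68 in Ikaros cells. At 24 h its Ikaros libraries were at 19.27, 19.33 and 19.33, all above the highest of the 18 control libraries, 18.04. Its difference between the lines was 0.90 at 6 h and 1.66 at 24 h (SE 0.18), with limma adjusted p of 0.000316 and 9.20e-09. Ighm minus Igll1 within a library was 1.10 ± 0.23 in control and 6.71 ± 0.46 in Ikaros cells at 24 h. Light chain constant genes were not analysed here.

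Over the 36 libraries Igll1 and Vpreb1 had a Pearson correlation of 0.984, the highest of either gene with any of the other 12500 genes with a symbol. These points share line and time, so the correlation describes a common course and carries no test. The next most alike were Impdh1 (0.973) and C1qtnf6 (0.973) for Igll1 and Htra2 (0.971) and Dusp12 (0.970) for Vpreb1. Vpreb2 correlated at 0.952 with Igll1 and was most like Amph (0.965), Angptl2 (0.964) and Cyp4f16 (0.960). Cd79b was most like Cyth1 (0.987), Klc4 (0.987) and Mical1 (0.986), and reached 0.9 with 571 genes, against 258 for Igll1, 315 for Vpreb1 and 184 for Vpreb2. For Cd79a 1 gene reached 0.9, Lypla2 (0.909), followed by Gm12840 (0.891) and Gimap5 (0.877). For Vpreb3 none did, the highest being Stradb (0.857), Pold4 (0.839) and Arl6ip5 (0.809).

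Top3b and Ppm1f lie beside Vpreb1 on the side away from Igll1. At 6 and 24 h they differed less between the lines than Vpreb1 itself. Igll1, the neighbour on the other side, differed more than Vpreb1 at 6 h (-3.80 against -2.48) and 24 h (-3.96 against -3.42). Top3b, a DNA topoisomerase gene on the opposite strand that overlaps Vpreb1 by 108 bases, differed between the lines by -0.24, -0.34, -0.81 and -0.78 at 0, 2, 6 and 24 h (limma, SE 0.11, adjusted p 4.70e-07 for the last). Ppm1f, a phosphatase gene beyond it, differed by 0.06, -0.74, -0.91 and -0.85 at 0, 2, 6 and 24 h (SE 0.15). The limma adjusted p of the last was 2.51e-05. From 0 to 2 h within the Ikaros line, Ppm1f changed more than Vpreb1. The limma values were -0.94 (adjusted p 8.26e-05) for Ppm1f and -0.17 (adjusted p 0.666) for Vpreb1. Top3b and Ppm1f were named after their values were seen. Whether counting used the strand is not given in the sources used here, so reads from the 108 shared bases could belong to either gene.

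Genes that carry the signal inward from the receptor were more often higher than lower at 24 h. Of 22 measured of 25 listed, 12 were higher, 4 lower and 6 not called, with a median difference of 0.33 against -0.01 over all genes, of which 31.0% were higher and 31.9% lower. At 0 h the list had 0 higher and 3 lower by limma. Blnk, the adaptor that links Syk to its targets, was at 15.29 ± 0.12 (SD, n = 3) against 11.15 ± 0.40 in control at 24 h, a difference of 4.14. Syk, the kinase recruited by the CD79 chains, differed by 2.33, and Tec, a kinase of the Btk family, by 2.10. Syk stood 0.42 lower in Ikaros cells at 0 h. On the lower side were Prkcb at -4.35, already at -4.87 at 0 h, Zap70 at -1.06 and Plcg2, the phospholipase downstream of Blnk, at -0.90. Prkcb was low in both lines at 24 h, at 8.45 ± 0.44 in control and 4.10 ± 0.68 in Ikaros cells. Its lowest library, at 1.02, was near the lowest value of any gene, 1. Btk differed by 0.14 (adjusted p 0.564).

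Inhibitors of receptor signalling were also more often higher than lower at 24 h, with exceptions. Of 12 measured of 13, 8 were higher at 24 h, 2 lower and 2 not called, with a median of 1.10. Over all genes 31.0% were higher and 31.9% lower. At 0 h the inhibitor list had 3 higher and 2 lower by limma. Fcgr2b, the inhibitory Fc receptor of B cells, differed by 7.08 at 24 h and by 2.08 at 0 h. Cd22 differed by 4.74 at 24 h and by 5.31 at 0 h, so its difference preceded induction. Dok3, an adaptor that damps signalling, went from -0.83 at 0 h to 3.06 at 24 h. The phosphatase genes Ptpn6 and Inpp5d were lower, at -1.18 and -0.42, and the latter was not called without replicate 2 (adjusted p 0.0682).

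Among the listed regulators of the B lineage, 12 of 19 measured of 20 were higher at 24 h, 4 were lower and 3 were not called. Their median was 0.58, and 31.0% of all genes were higher and 31.9% lower. Whether the listed regulators act on the 6 genes in these cells was not tested. Of the factors that establish B cell identity, Ebf1 differed by 1.01, Pax5 by 1.14 and Tcf3, which encodes E2A, by 0.25. Spib differed by 6.06 and Bach2 by 5.45, neither of them called at 0 h (-0.48 and 0.60). Ikzf1, which the vector supplies and which is counted among the 12, differed by 6.10 against 5.19 at 0 h, whereas Myc (-2.52), Ikzf3 (-1.59) and Lef1 (-1.49) were lower. Ikzf3, the Aiolos gene, was called higher in Ikaros cells at 0 h (2.22, adjusted p 0.00633) and at 12 h (1.34, adjusted p 0.0384) before it was lower at 18 and 24 h. It was low in both lines at 24 h, at 7.68 ± 0.95 in control and 6.09 ± 1.05 in Ikaros cells, and lost its call without replicate 2 (adjusted p 0.108) and without replicate 3 (adjusted p 0.0509). Irf4, named after its values were seen, differed by -0.53, -5.02, -4.56, -3.12, -1.46 and 0.11 at the 6 times (SE 0.38), and was called lower from 2 to 18 h.

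**Figure D4:**
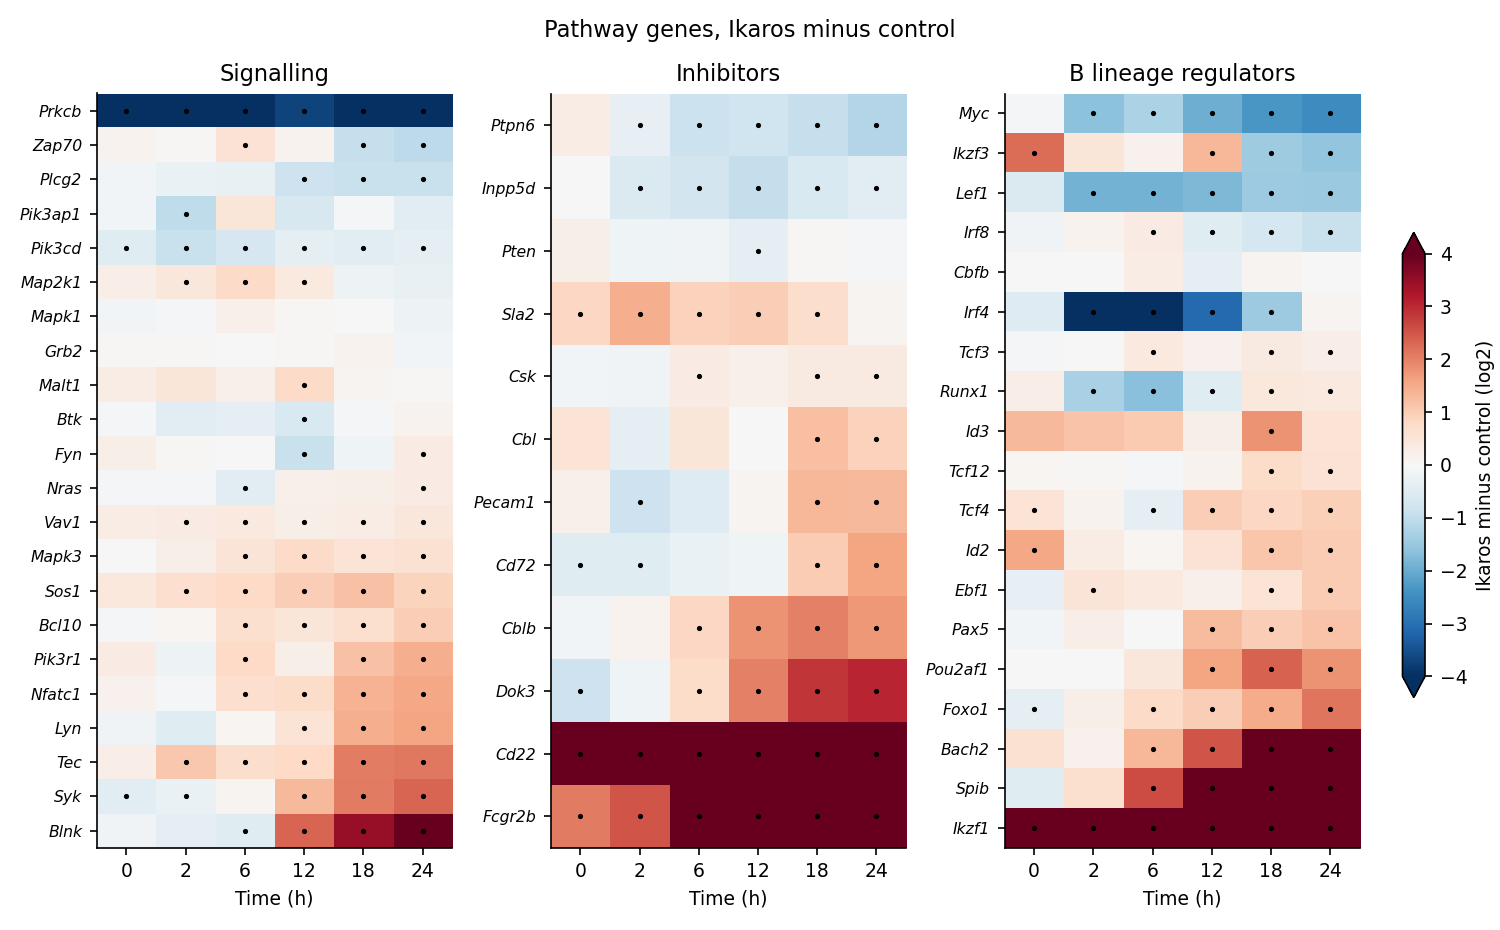
Ikaros minus control difference (log2, colour, cut at -4 and 4) by time in hours for the measured genes of the signalling list (22), the inhibitor list (12) and the regulator list (19), ordered by the value at 24 h, with a dot where the adjusted p was under 0.05 in limma. Prkcb and Cd22 have dark cells already at 0 h, whereas Blnk reaches 4.14 and Bach2 5.45 at 24 h from -0.16 and 0.60 at 0 h.

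Genes of the light chain stage were mostly higher by 24 h. Of 10 measured of 18, 8 were higher, 1 lower and 1 not called, with a median of 1.87. The shares over all genes at 24 h were 31.0% higher and 31.9% lower. Rag1, which cuts immunoglobulin genes for recombination, was at 15.22 ± 0.54 in Ikaros and 10.03 ± 0.02 in control cells, a difference of 5.19, against 0.39 at 0 h. Il2ra went from -2.40 at 0 h to 2.43 and Cxcr4 from -0.03 to 2.42, while Mzb1 was lower at 24 h (-0.40) as it had been at 0 h (-0.48, adjusted p 0.00116). Of 14 B lineage markers, a list that includes members of the receptor, 10 were higher and 3 lower at 24 h, the lower ones being Igll1, Vpreb1 and Vpreb3.

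Of the 6 measured markers of other lineages, 2 were higher at 24 h (Itgam at 4.24 and Tfrc, the transferrin receptor of dividing cells, at 0.91), 1 was lower (Lyz2 at -2.94) and 3 were not called. Among all genes 31.0% were higher and 31.9% lower at that time. Lyz2 had been called higher in Ikaros cells at 0 h (2.94, adjusted p 0.000627) and at 2 h (2.66). The level of the 6 summed on the linear scale and returned to log2 was 15.67 to 15.78 in Ikaros and 14.59 to 14.995 in control libraries at 24 h. Without Tfrc it was 10.09 to 10.38 and 8.86 to 9.94, and at 0 h it was 9.74 to 10.34 and 8.83 to 8.98, so it was below the level of every surrogate light chain gene but Vpreb2 at 24 h. Its part in the results was not tested. In these bulk libraries fewer cells expressing a gene and less RNA per cell cannot be told apart.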

How the data were processed

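Strand-specific mRNA libraries from 36 B3 cultures were grouped by their labels. The authors trimmed the reads, kept a unique best hit on mm10 with TopHat2, and assigned fragments to genes with HTSeq. They then applied cqn for GC content and length and non-parametric ComBat for library preparation. Tool versions are not given in the sources used here. The deposited values are on a log2 scale, with a constant added so that the lowest is 1, and the table does not name the base. Without counts the depth is unknown, and precision rests on 3 libraries per group. Adjustment before deposition may make standard errors too small.

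One limma 3.58.1 model (R 4.3.3) held a mean per group over all 12 groups, with two-sided p-values and Benjamini-Hochberg adjustment over 12762 genes, and was first tested on data with known answers. Positions came from GENCODE mouse release 21 (GRCm38). Genes named beside the 6 were Ikzf1, Ighm, the 3 largest called rises and falls of each list at 24 h, and the 3 most correlated genes of each member, and a few chosen for background or after their values were seen. The members, lists and alternatives were chosen with earlier results of these data known. A few genes of the lists are not reported here and were left out of their counts. Batch numbers that the labels give to both lines pair the libraries. Over 18 pairs the deviations from group means had correlations between -0.0620 and 0.507 (median 0.127), 12 of them above 0.1. Alternatives were a replicate block, also with separate 0 h blocks, library preparation as a term, a filter at the 25th percentile of mean level, quantile normalization, trend and robust eBayes settings, only the compared groups, and leaving out each replicate.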

Additional observations from a re-analysis of the deposited data

Results flagged for a closer look

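The change of the Ikaros minus control difference from 0 h was tested as an interaction in limma for each gene and time. Igll1 passed at 2, 6, 12, 18 and 24 h, with -1.16, -3.58, -4.21, -3.65 and -3.74. Vpreb1 passed at the last 4 of these times, with -2.14, -3.13, -2.54 and -3.09. Vpreb2 passed at the same 4, with -2.47, -2.52, -1.85 and -3.11. Cd79b passed at the same 4 in the opposite direction, with 1.01, 1.48, 2.04 and 2.47. Cd79a passed only at 18 h, with 0.38 (adjusted p 0.0336), and its value of 0.32 at 24 h had an adjusted p of 0.0716. The Cd79a call was lost without replicate 1, 2 or 3 (adjusted p 0.191, 0.206 and 0.0507) and with library preparation as a term (adjusted p 0.248).

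Between 2 and 24 h, a comparison without the 0 h cultures, the difference changed by -2.57 for Igll1, -2.60 for Vpreb1, -2.81 for Vpreb2 and 2.14 for Cd79b. The 0 h cultures included batch 2 in place of batch 3 and were collected on other occasions, and the part of these in the values from 0 h was not tested.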

How the results depend on the processing

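Over 108 values of the 6 genes (differences between the lines, their changes, the steps, and the 24 h change in the Ikaros line), all 108 kept their direction and their side of the threshold under the replicate block, the filter, and the trend and robust settings. Under the replicate block the members called between the lines numbered 2, 4, 6, 4, 4 and 5, as without it, and it changed no call of a member. With library preparation as a term 97 of the 108 kept both, and with only the compared groups 91. The calls of Igll1, Vpreb1, Vpreb2 and Cd79b between the lines from 6 h held in all alternatives run.

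With library preparation as a term the members called were 1 at 0 h between the lines, 0 at 2 h for the change from 0 h, and 1 for each of the steps 6 to 12 h and 12 to 18 h. In fits of the compared groups only, which use fewer samples, they were 2 at 2 h between the lines, 0 at 2 h for the change from 0 h, 0 for the 0 to 2 h step, which is also the 2 h change of the Ikaros line, 1 for the 2 to 6 h step, 0 for the 6 to 12 h step and 1 for the 12 to 18 h step. The number of genes called between the lines was 443, 1283 and 2585 at 0, 2 and 6 h with library preparation as a term, 701 at 0 h with the filter, and 860 at 2 h and 2150 at 6 h with only the compared groups. Leaving out a replicate gave 0 to 2 members at 0 h and 2 to 3 at 2 h between the lines, 0 to 1 for the change from 0 h at 2 h and for the 0 to 2 h step, 0 to 3 for the 6 to 12 h step and 1 for the 12 to 18 h step. Genes called between the lines then numbered 318 to 1204 at 0 h, 804 to 2719 at 2 h, 2640 to 4971 at 6 h and 3769 to 5921 at 12 h.

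Values that changed sign were uncalled in every alternative run. Without 1 replicate, Vpreb3 ranged from -0.0908 to 0.214 between the lines at 18 h. Its change from 0 h ranged from -0.475 to 0.114 at 2 h, -0.168 to 0.0976 at 12 h, -0.0833 to 0.587 at 18 h and -0.940 to 0.0600 at 24 h, and its change from 2 to 24 h from -0.525 to 0.136. In the Ikaros line its 24 h change ranged from -0.373 to 0.0533, and its steps from -0.430 to 0.0735 (0 to 2 h), -0.0403 to 0.269 (12 to 18 h) and -0.498 to 0.108 (18 to 24 h). The change of Cd79a from 0 h at 2 h ranged from -0.101 to 0.177, its 12 to 18 h step from -0.132 to 0.117 and its 18 to 24 h step from -0.00891 to 0.154, and the 0 to 2 h step of Vpreb1 from -0.463 to 0.180. The 12 to 18 h step of Cd79a was -0.00560 with library preparation as a term and -0.0253 with quantile normalization. The causes were not tested.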
